A study of Homo sapiens with 132 samples.

Results

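The Toll-like receptors TLR1 to TLR6, the LPS co-receptors CD14 and LY96 (which encodes MD-2) and the adaptor MYD88 were followed at the RNA level in 4 gastric cancer cell lines treated with EGF or with ERBB inhibitors. These 9 genes were chosen as a named family, and each was read from the row of its Ensembl identifier among the 65217 identifiers of the count files. Toll-like receptors are membrane proteins that recognise conserved molecules of microbes. TLR2 pairs with TLR1 or TLR6 at the cell surface and binds bacterial lipopeptides, TLR4 binds lipopolysaccharide (LPS) together with MD-2 after CD14 has handed the LPS over, TLR5 binds flagellin, and TLR3 sits in endosomes and binds double-stranded RNA. All of these receptors except TLR3 signal through MYD88, which recruits IRAK kinases and leads to activation of NF-κB, whereas TLR3 signals through the adaptor TICAM1. Gastric epithelial cells are exposed to bacteria such as Helicobacter pylori, and several of these receptors are known to be made by epithelial cells as well as by leukocytes.

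The cells used, MKN1, MKN7, NCI-N87 and Hs746T, all derive from gastric cancer that had spread. Afatinib inhibits the kinase domains of EGFR, HER2 and HER4, cetuximab is an antibody against EGFR, trastuzumab is an antibody against HER2, and EGF is a ligand of EGFR. MKN1 and Hs746T cells were left untreated or received EGF (5 ng/ml), EGF + cetuximab, cetuximab (1 µg/ml), trastuzumab (5 µg/ml), afatinib (0.5 µM) or trastuzumab + afatinib. In MKN7 and NCI-N87 the conditions were untreated, trastuzumab, afatinib and the combination of both. The paper names DMSO as the solvent control of afatinib, but no library of DMSO-treated cells is among those used here. Where afatinib is compared with cells that did not receive it, the drug and its solvent therefore cannot be told apart. RNA was taken after 4 h or 24 h, and each of the 44 conditions had 3 biological replicates. The 4 lines are different tumors, and Hs746T was grown in DMEM whereas the other lines were grown in RPMI, so that line and medium cannot be told apart there. In such bulk RNA, fewer cells that carry a transcript and less of it per cell cannot be told apart.

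The libraries held 25832557 to 69434151 counts (median 50725776), so that 3 counts, the limit that a count of 0 allows, correspond to a CPM value (the count relative to the library size) of 0.0432 to 0.116. Levels are given below as CPM scaled by the TMM method across all libraries. Of 6 epithelial markers, the summed level was 4470 to 25900 CPM in MKN1, MKN7 and NCI-N87 and 717 to 1040 CPM in Hs746T, where CDH1 had a median of 0.778 CPM in untreated libraries. CDH1 was also low in untreated MKN1 (2.18 CPM). Not every marker of that list followed the sum. CLDN4 had an untreated median of 308 CPM in Hs746T, 599 in NCI-N87, 144 in MKN7 and 10.4 in MKN1. EPCAM was at 35.2 CPM in Hs746T and 25.9 in MKN1, but at 633 in MKN7 and 507 in NCI-N87. Of 8 leukocyte markers, AIF1 and TYROBP had at most 4 counts in any library. Others on the list were present: ITGAM reached 13.8 CPM in MKN7, LYZ 8.94 CPM in NCI-N87 and CSF1R 4.64 CPM in MKN1. PTPRC and SPI1 did not exceed 0.664 and 0.912 CPM in any library. CD68, also on that list, was at 0 in all libraries but lies inside another gene, as TLR6 does (below). In Hs746T, replicate 1 stood apart from replicates 2 and 3 in several members at both times, and fits with the replicate number as a block were run beside the main ones for treatment effects.

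TLR6 could not be measured. It had 0 counts in every library, and it lies wholly inside the span of TLR1 on the same strand of chromosome 4 (TLR6 at chr4:38823715-38856817 and TLR1 at chr4:38790677-38856817, GRCh38, GENCODE release 29). Of 447 protein-coding genes nested in this way in another gene, 427 (95.5%) were at 0 in all libraries, compared with 1543 of the 19227 others (8.03%). Whether reads from TLR6 were dropped or counted for TLR1 cannot be told apart from the count files, and every TLR1 value below carries that limit. The other members are single genes with no overlapping protein-coding gene. TLR2 (chr4:153684070-153705702) and TLR3 (chr4:186069152-186088069) lie on the plus strand of chromosome 4, TLR4 (chr9:117704175-117724730) and MYD88 (chr3:38138478-38143022) on plus strands, and TLR5 (chr1:223109406-223143282) and CD14 (chr5:140631728-140633701) on minus strands.

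TLR3 and TLR5, whose RNA was higher after 24 h of afatinib in the same lines (below), have the following sequence upstream of their RefSeq starts (GRCh38.p14), printed 5′ to 3′ on the strand of the gene. The last 4 bases before the start of TLR3 and the last 34 before that of TLR5 are left out, since GENCODE release 29 places them in an exon. TLR3 covers chr4:186068906-186069151 (plus strand, 246 bases), where capitals mark matches to the STAT motif TTCNNNGAA and the SP1 motif GGGCGG. TLR5 covers chr1:223143283-223143498 (minus strand, 216 bases), where capitals mark matches to an NF-κB motif (GGG, any 5 bases, then CC), some of which contain the SP1 letters.
TLR3: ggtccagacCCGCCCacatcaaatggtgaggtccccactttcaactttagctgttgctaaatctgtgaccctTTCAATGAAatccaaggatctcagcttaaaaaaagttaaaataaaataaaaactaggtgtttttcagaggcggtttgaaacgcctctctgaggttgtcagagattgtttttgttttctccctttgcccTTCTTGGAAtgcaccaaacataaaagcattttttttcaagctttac
TLR5: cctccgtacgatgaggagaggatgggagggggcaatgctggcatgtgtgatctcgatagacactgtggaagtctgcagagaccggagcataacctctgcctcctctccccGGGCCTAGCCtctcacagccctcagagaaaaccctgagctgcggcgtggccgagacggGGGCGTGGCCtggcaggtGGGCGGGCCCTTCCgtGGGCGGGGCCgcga
Of 35116 RefSeq windows of 250 bases, 6.57% held the STAT letters, 42.6% the SP1 letters and 54.4% the NF-κB letters on either strand. The 250 bases before the start of each gene, left-out bases included, shared no motif other than the SP1 letters among those searched, which also included TGANTCA (AP-1, 6.57%), CCGGAA (ETS, 14.5%), GCGNGGGCG (EGR, 8.41%) and GAGGAA (PU.1, 23.6%). The EGR letters were found in TLR5 alone of the 2, at positions −17 to −9 from its start, within the bases left out. A match describes letters and not a bound site. RefSeq windows were found for 7 of the 9 members.

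In untreated cells each line had its own set of receptors. MYD88, the adaptor, was the most abundant member in all lines but 1 when levels were set per length of exon: its median was 28.5 CPM per kb in MKN7, 20.2 in Hs746T, 13.1 in MKN1 and 4.91 in NCI-N87. The exception was Hs746T, where LY96 reached 70.4 CPM per kb. Over the 6 untreated libraries of each line, MYD88 was at 94.2 to 134 CPM in MKN7 (median 114), 73.5 to 88.7 in Hs746T (median 80.5), 46.7 to 58.5 in MKN1 (median 52.2) and 18.4 to 23.4 in NCI-N87 (median 19.6). These ranges did not overlap between lines, and neighbours in this order differed from each other (adjusted p of 1.92e-11 or less for each of the pairs). Adjusted p here and below is edgeR's quasi-likelihood p with Benjamini-Hochberg adjustment over all genes tested, and a gene is called regulated at an adjusted p under 0.05 with a log2 fold change (log2FC) beyond 1 in either direction.

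LY96, the MD-2 gene on chromosome 8, was at 39.7 to 49.7 CPM in untreated Hs746T (median 42.7). In the other lines it stayed between 0.168 and 1.09 CPM, with medians of 0.571 in MKN1, 0.483 in MKN7 and 0.295 in NCI-N87. The differences in LY96 between MKN1 and MKN7 (adjusted p = 0.108) and between MKN7 and NCI-N87 (adjusted p = 0.0511) missed the threshold. TLR4, its partner, was at a median of 20 CPM in NCI-N87 (12.1 to 27.6), 12.8 in Hs746T (8.39 to 19.3) and 5.93 in MKN1 (3.97 to 7.25), so that the ranges of NCI-N87 and Hs746T overlapped although their difference passed the threshold (log2FC 0.65 ± 0.188, adjusted p = 0.0013). That last call was lost without replicate 2, which left an adjusted p of 0.228. MKN7 had next to no TLR4: 7 of its 24 libraries were at 0, 16 had at most 3 counts and none had more than 10, and no fold is given against it. CD14, the third part of the LPS receptor, ran in another order, with medians of 4.59 CPM in MKN1 (3.11 to 6.40), 0.636 in MKN7 (0.509 to 1.05), 0.633 in NCI-N87 (0.543 to 0.814) and 0.199 in Hs746T (0.073 to 0.282). The difference in CD14 between MKN7 and NCI-N87 missed the threshold (adjusted p = 0.819), and 7 of the 42 Hs746T libraries had at most 3 counts. No line was thus the highest for all 3 genes: the highest median of TLR4 was in NCI-N87, that of LY96 in Hs746T and that of CD14 in MKN1. These orders hold between lines for 1 gene at a time, since per kb of exon the level of LY96 in untreated MKN1 (0.94 CPM per kb) lay above that of TLR4 (0.447).

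TLR2, the lipopeptide receptor, was at a median of 22.6 CPM in Hs746T (14.9 to 25.2), 15 in MKN1 (12.2 to 18.3), 4.75 in NCI-N87 (3.12 to 5.26) and 2.83 in MKN7 (2.30 to 3.46). Its partner TLR1 ran differently, at 13.8 CPM in NCI-N87 (9.21 to 15.2) and 10.4 in Hs746T (7.71 to 11.7) against 0.815 in MKN7 (0.594 to 1.08) and 0.459 in MKN1 (0.232 to 1.10). MKN1 was therefore high in TLR2 and low in TLR1, and NCI-N87 the reverse. NCI-N87 and Hs746T differed in TLR1 by a log2FC of 0.35 ± 0.139 (adjusted p = 0.0192), which was lost without replicate 1 or 2 and with library sizes alone (largest adjusted p = 0.396). TLR3, the receptor for double-stranded RNA, was at 9.31 CPM in NCI-N87 (6.80 to 10.3), 4.83 in Hs746T (3.40 to 5.70), 1.71 in MKN1 (0.441 to 4.11) and 1.33 in MKN7 (1.21 to 2.98). MKN1 and MKN7 overlapped in TLR3 over both times together, and their difference, averaged over 4 h and 24 h, missed the threshold (adjusted p = 0.217). In MKN1 the 4 h libraries lay below every untreated MKN7 library, whereas the 24 h libraries were higher and overlapped them (values below). The MKN1 median of TLR3 thus lies between its levels at 4 h and at 24 h. TLR5, the flagellin receptor, was low in all 4 lines, at 1.79 CPM in NCI-N87 (1.33 to 2.30), 1.39 in MKN7 (1.24 to 2.06), 0.930 in Hs746T (0.690 to 1.06) and 0.774 in MKN1 (0.502 to 1.24). Neighbours at either end of that order missed the threshold (adjusted p = 0.0881 for MKN7 and NCI-N87 and 0.336 for MKN1 and Hs746T).

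Between untreated lines, 8 of the 8 members tested were regulated between MKN1 and NCI-N87 (all genes, 45.9%), 5 between MKN1 and Hs746T (47.8%) and 5 between NCI-N87 and Hs746T (49.1%). TLR4 failed the filter on low counts in MKN7 and entered these tests through the other lines alone, so that it had to differ there and is not counted. Of the other 7 members, 3 were regulated between MKN1 and MKN7 (all genes, 41.4%), 3 between MKN7 and NCI-N87 (44.4%) and 5 between MKN7 and Hs746T (45.9%). The counts of members were not tested against these shares, and these line comparisons were not run with the replicate block.

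**Figure D1:**
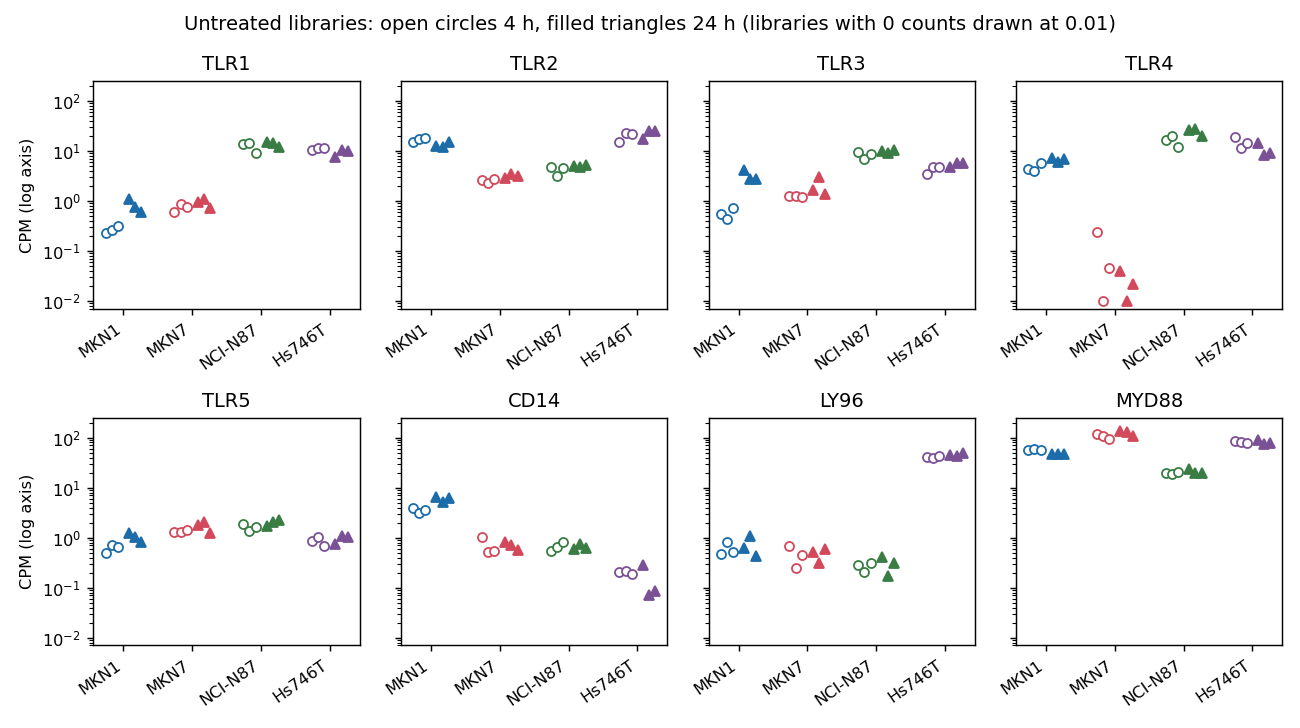
TMM-scaled CPM of the 8 measurable members (log axis) in the untreated libraries of the 4 cell lines, with 1 point per library (open circles 4 h, filled triangles 24 h). LY96 sits near 42.7 CPM in Hs746T and below 1.1 CPM in the other lines, and TLR4 is near 0 in MKN7.

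The untreated cells were not constant in time. In MKN1, TLR3 was at 0.540, 0.441 and 0.713 CPM at 4 h and at 4.11, 2.71 and 2.79 CPM at 24 h (replicates 1 to 3). Each 24 h library was above each 4 h library, and TLR3 was regulated (log2FC 2.49 ± 0.264 SE, adjusted p = 8.66e-09). TLR1 moved in the same direction, from 0.232, 0.269 and 0.317 CPM to 1.10, 0.764 and 0.602 CPM (log2FC 1.59 ± 0.335, adjusted p = 0.000352). These 2 of the 8 members tested were regulated, beside 8.06% of all genes. With them 7 members passed the adjusted p, beside 34.1% of all genes: CD14 (log2FC 0.72), TLR5 (0.72) and TLR4 (0.50) rose, whereas TLR2 (−0.38) and MYD88 (−0.29) fell. The calls of TLR2 and MYD88 were lost with library sizes alone (adjusted p of 0.0548 for MYD88 and at most 0.092 for TLR2), those of TLR5 and TLR4 without replicate 1 (0.343 and 0.122). No member was regulated between 4 h and 24 h in untreated MKN7 (1.76% of all genes), Hs746T (0.129%) or NCI-N87 (0.0472%). In MKN1 each treatment is therefore compared with the untreated cells of the same time.

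After afatinib, TLR1, TLR3 and TLR5 were higher in MKN1, MKN7 and NCI-N87, to a degree that depended on line and time, and TLR4 was lower in MKN1 and NCI-N87. In NCI-N87, TLR5 was at 1.71, 2.02 and 2.30 CPM in the untreated cells at 24 h and at 10.4, 10.5 and 9.65 CPM with afatinib. All 3 treated libraries exceeded all untreated ones, at 5.06 times the mean (log2FC 2.31 ± 0.179, adjusted p = 3.56e-10). At 4 h the same cells had 1.87, 1.33 and 1.63 CPM of TLR5 untreated and 1.88, 1.38 and 2.27 CPM with afatinib, ranges that overlapped. The difference in TLR5 response between 24 h and 4 h was a log2FC of 2.11 and passed its own test (all genes, 35.8%).

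TLR3 in NCI-N87 was at 9.86, 9.27 and 10.3 CPM untreated and at 31.9, 33.5 and 33.2 CPM with afatinib at 24 h (log2FC 1.71 ± 0.129, adjusted p = 2.27e-10). At 4 h it was at 9.36, 6.80 and 8.58 CPM untreated and at 16.1, 12.9 and 16.4 CPM with afatinib, already without overlap (log2FC 0.88 ± 0.128, adjusted p = 3.24e-05). TLR1 was at 15.2, 14.5 and 11.9 CPM untreated and at 44.7, 40.4 and 35.3 CPM with afatinib at 24 h (log2FC 1.5 ± 0.214, adjusted p = 3.02e-06). At 4 h TLR1 was at 13.5, 14.2 and 9.21 CPM untreated and at 26.3, 27.2 and 19.1 CPM with afatinib (log2FC 0.98 ± 0.213, adjusted p = 0.00214). NCI-N87 also had the highest untreated medians of the 4 lines for all 3 receptors. At 24 h, 4 of the 8 members tested in NCI-N87 were regulated, beside 29.6% of all genes, and the same 4 passed the adjusted p, beside 62.5%. At 4 h 1 member was regulated, TLR4, beside 3.24% of all genes, and 4 passed the adjusted p, beside 18.2%.

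MKN7 cells showed the same direction from a lower start. TLR1 was at 0.963, 1.08 and 0.738 CPM untreated and at 3.25, 4.41 and 4.4 CPM with afatinib at 24 h (log2FC 2.11 ± 0.225, adjusted p = 1.88e-07). TLR3 was at 1.69, 2.98 and 1.41 CPM untreated and at 6.27, 7.20 and 5.47 CPM with afatinib (log2FC 1.63 ± 0.221, adjusted p = 3.67e-06). TLR5 was at 1.77, 2.06 and 1.24 CPM untreated and at 3.15, 3.71 and 4.02 CPM with afatinib (log2FC 1.09 ± 0.167, adjusted p = 1.53e-05). None of these groups overlapped, and 3 of the 7 members tested were regulated, beside 13.5% of all genes. With MYD88 (below) 4 passed the adjusted p, beside 51.6%. At 4 h TLR1 was regulated, with 0.594, 0.884 and 0.746 CPM untreated against 1.98, 1.90 and 1.14 CPM with afatinib (log2FC 1.12 ± 0.245, adjusted p = 0.00193). Without replicate 1 that call was lost (adjusted p = 0.0891). TLR5 passed the adjusted p at 4 h (log2FC 0.86), so that 1 member was regulated beside 3.4% of all genes and 2 passed the adjusted p beside 22.2%.

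In MKN1 the 24 h levels of TLR3 were 4.11, 2.71 and 2.79 CPM untreated and 9.85, 6.55 and 9.05 CPM with afatinib (log2FC 1.38 ± 0.215, adjusted p = 1.45e-05). TLR1 was at 1.10, 0.764 and 0.602 CPM untreated and at 1.78, 2.08 and 3.23 CPM with afatinib (log2FC 1.49 ± 0.264, adjusted p = 8.02e-05). These 2 members were regulated, beside 4.19% of all genes. TLR5 (log2FC 0.76, adjusted p = 0.00462) and CD14 (log2FC 0.56, adjusted p = 0.00306) passed the adjusted p without being regulated, which made 4 members past it beside 25.6% of all genes, and both were lost without replicate 3 (adjusted p of 0.161 and 0.073). At 4 h TLR3 was at 0.540, 0.441 and 0.713 CPM untreated and at 1.21, 0.676 and 1.41 CPM with afatinib, which overlapped and missed the threshold (log2FC 0.95, adjusted p = 0.0508). With the replicate number as a block, the 4 h differences of TLR3 (log2FC 0.93, adjusted p = 0.00244), TLR5 (0.60, 0.0414) and MYD88 (−0.17, 0.0335) in MKN1 passed it.

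**Figure D2:**
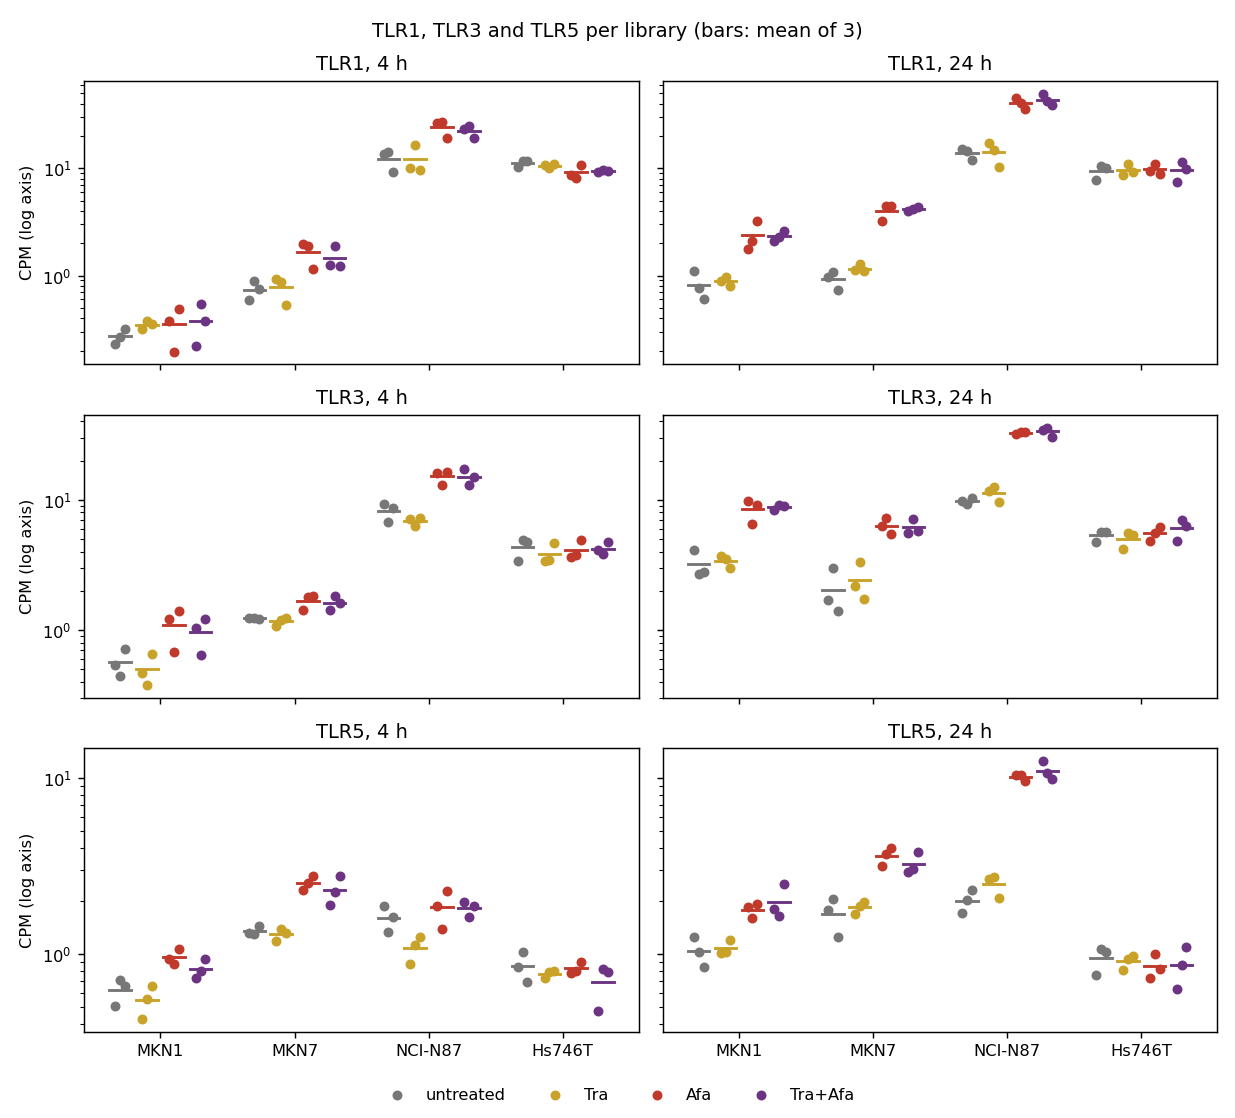
TMM-scaled CPM of TLR1, TLR3 and TLR5 (log axis) in cells of the 4 lines left untreated or given trastuzumab, afatinib or both, at 4 h and 24 h, with 1 point per library and a bar at the mean of 3. At 24 h the afatinib libraries lie above the untreated ones in MKN1, MKN7 and NCI-N87 and among them in Hs746T.

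In Hs746T no gene at all was regulated by any treatment against untreated (0.0% in each comparison). TLR3 was there at 4.71, 5.65 and 5.70 CPM untreated and at 4.86, 5.56 and 6.16 CPM with afatinib at 24 h, TLR1 at 7.71, 10.5 and 10.1 against 9.51, 11 and 8.80 CPM, and TLR5 at 0.759, 1.06 and 1.03 against 0.730, 1.00 and 0.820 CPM. The treated and untreated libraries overlapped for all 3 genes. Over 12 comparisons of a treatment with untreated Hs746T cells, 0 of 96 tests of members passed the adjusted p (4 had an unadjusted p under 0.05), and the log2FC ranged from −1.02 to 0.94, both from CD14, which had at most 29 counts in any Hs746T library. With the replicate block, which takes out the offset of replicate 1, 18.6% of all genes passed the adjusted p after 4 h of afatinib in Hs746T, and so did 4 members with small changes: LY96 (log2FC 0.45, adjusted p = 0.00282), MYD88 (0.17, 0.00654), TLR2 (0.15, 0.0201) and TLR1 (−0.25, 0.0304).

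The afatinib effects on TLR1, TLR3 and TLR5 differed between Hs746T and the other lines when the difference itself was tested. At 24 h the log2FC in NCI-N87 exceeded that in Hs746T by 2.48 ± 0.272 for TLR5, 1.69 ± 0.283 for TLR3 and 1.48 ± 0.278 for TLR1 (adjusted p of 6.19e-06 or less, all genes 35.1%). In MKN7 it exceeded that in Hs746T by 2.06 for TLR1, 1.59 for TLR3 and 1.24 for TLR5 (adjusted p of 0.000351 or less, all genes 18.8%), and in MKN1 by 1.45, 1.35 and 0.92 (adjusted p of 0.00134, 0.00135 and 0.0388, all genes 4.41%). The differences between MKN1 and Hs746T were lost without replicate 3 (adjusted p of 0.581 for TLR1, 0.192 for TLR3 and at most 0.779 for TLR5), and that of TLR5 between MKN7 and Hs746T likewise (0.102). TLR5 rose more in NCI-N87 than in MKN1 (difference 1.56, adjusted p = 7.65e-07, all genes 28.0%) and than in MKN7 (difference 1.24, adjusted p = 6.33e-05, all genes 21.4%). For TLR1 and TLR3 no difference between MKN1, MKN7 and NCI-N87 passed the threshold at 24 h, and with the block TLR1 differed between MKN7 and NCI-N87 (0.57, adjusted p = 0.0157) and TLR3 between MKN1 and NCI-N87 (−0.35, adjusted p = 0.043). At 4 h, TLR1 exceeded its change in Hs746T by 1.45 in MKN7 (all genes, 5.3%) and by 1.27 in NCI-N87 (all genes, 6.74%), and neither held in each of the sets with 1 replicate left out (adjusted p of at most 0.0796 and 0.0714). Between MKN1 and MKN7 at 24 h MYD88 differed (all genes, 7.61%), and with the block LY96 did as well (1.36, adjusted p = 0.01). At 4 h no member differed between them (1.38%). The calls given here for differences from Hs746T also held with the block (adjusted p of 0.00318 or less).

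TLR4 was lower after afatinib at 4 h in MKN1 and NCI-N87, and at 24 h in NCI-N87 but not in MKN1. The effects in MKN1 and NCI-N87 differed at 24 h (below) but not past the threshold at 4 h (difference 0.12 ± 0.394). Whether the change from 4 h to 24 h differed between the lines was not tested. In NCI-N87 it was at 16.6, 19.7 and 12.1 CPM untreated and at 7.47, 7.85 and 6.69 CPM with afatinib at 4 h (log2FC −1.13 ± 0.184, adjusted p = 0.000116). At 24 h it was at 25.8, 27.6 and 20.2 CPM untreated and at 6.81, 7.39 and 6.67 CPM with afatinib (log2FC −1.85 ± 0.186, adjusted p = 1.98e-08). The groups did not overlap at either time, and the treated cells stayed at the same level while the untreated mean was 24.5 CPM at 24 h and 16.2 CPM at 4 h. In MKN1, afatinib left 2.30, 2.03 and 2.60 CPM at 4 h against 4.38, 3.97 and 5.73 CPM in untreated cells (log2FC −1.04, adjusted p = 3.08e-06). TLR4 was the 1 member regulated of 8 (all genes, 0.681% regulated and 3.68% past the adjusted p). Its log2FC lay close to the cut of 1. Over 9 alternatives it ran from −1.09 to −0.94, and TLR4 was regulated in 7 of them, with the adjusted p under 0.05 in all. At 24 h the afatinib libraries were at 7.55, 6.59 and 6.32 CPM and the untreated ones at 7.25, 6.13 and 6.79 CPM, which overlapped (log2FC 0.00). The 24 h effect exceeded the 4 h effect by a log2FC of 1.04 ± 0.183 in MKN1 (adjusted p = 0.00205, all genes 2.77%), a test added after these levels were seen. Without replicate 1 or 3 that difference was lost (adjusted p of at most 0.0868) at a log2FC between 1.02 and 1.06. In NCI-N87 the 24 h effect was instead 0.71 further down (adjusted p = 0.0347), which was lost with library sizes alone and without replicate 1 or 2 (at most 0.233). The afatinib effect on TLR4 at 24 h differed between MKN1 and NCI-N87 by 1.84 ± 0.382 (adjusted p = 6.73e-05) and between NCI-N87 and Hs746T by −1.86 ± 0.380 (adjusted p = 3.07e-05).

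In Hs746T, TLR4 was at 19.3, 11.3 and 14.6 CPM untreated and at 17.7, 10.4 and 13.1 CPM with afatinib at 4 h, and at 14.4, 8.39 and 9.26 against 13.6, 9.52 and 10.0 CPM at 24 h. Replicate 1 was the highest in each of these groups, so that the replicates spread more than the treatments. The 4 h difference in afatinib effect from Hs746T was −0.89 for MKN1 and −1.01 for NCI-N87 and missed the threshold (adjusted p of 0.432, all genes 0.372%, and 0.098). With the replicate block both passed (−0.88, adjusted p = 4.09e-05, and −0.99, adjusted p = 5.74e-09). In MKN7 the counts of TLR4 were too low for a test within the line.

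**Figure D3:**
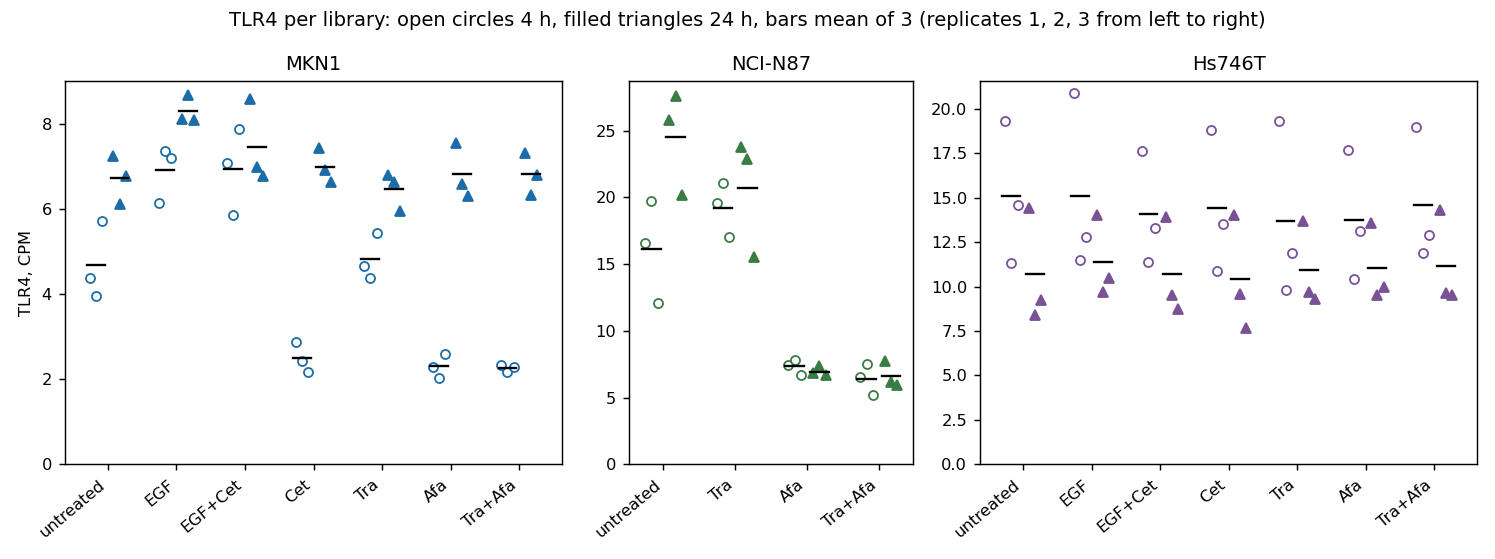
TMM-scaled CPM of TLR4 in every library of MKN1, NCI-N87 and Hs746T by treatment and time, with 1 point per library and a bar at the mean of 3. In MKN1 afatinib and cetuximab lie below untreated at 4 h and level with it at 24 h, whereas in NCI-N87 the afatinib libraries lie between 6.67 and 7.85 CPM at both times.

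MYD88 responded by line and time, and the direction was not shared. In NCI-N87 it was at 19.3, 18.4 and 20.6 CPM untreated and at 12.5, 11.4 and 13.0 CPM with afatinib at 4 h (log2FC −0.66 ± 0.112, adjusted p = 0.000212). At 24 h the same line was at 23.4, 19.7 and 19.5 CPM untreated and at 22.2, 21.4 and 22.6 CPM with afatinib, with overlap. In MKN7 it was between 109 and 134 CPM in the 3 untreated libraries (mean 125) and at 227, 219 and 195 CPM with afatinib at 24 h (log2FC 0.77 ± 0.112, adjusted p = 8.49e-06). At 4 h MKN7 had 119, 107 and 94.2 CPM untreated and 110, 101 and 87.5 CPM with afatinib, with overlap. The 24 h effect exceeded the 4 h effect by 0.90 in MKN7 (all genes, 18.0%) and by 0.70 in NCI-N87. At 4 h the change in NCI-N87 lay below that in MKN1 by 0.51 (all genes, 1.83%), in MKN7 by 0.56 (all genes, 1.01%) and in Hs746T by 0.79 (adjusted p = 4.65e-06), and the first 2 were lost when any 1 replicate was left out (adjusted p of at most 0.315 and 0.402). At 24 h the rise in MKN7 exceeded the change in MKN1 by 0.76, in NCI-N87 by 0.69 and in Hs746T by 0.79, all past the threshold.

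TLR2, CD14 and LY96 were regulated by no treatment. Over 36 comparisons of a treatment with untreated cells, TLR2 stayed within a log2FC of −0.45 to 0.18 and passed the adjusted p once, after trastuzumab + afatinib in NCI-N87 at 24 h (log2FC −0.45 ± 0.192, adjusted p = 0.0446), a call that was lost under 5 of 9 alternatives (adjusted p up to 0.53). LY96 ranged from −0.87 to 0.64 and passed in none (2 had an unadjusted p under 0.05). Its lowest value, in MKN7 after 24 h of afatinib (0.424, 0.168 and 0.208 CPM against 0.522, 0.314 and 0.607 untreated), passed with the replicate block (adjusted p = 0.0202), as did CD14 there (log2FC 0.48, adjusted p = 0.0417). In MKN1 CD14 was at 8.68, 8.71 and 9.09 CPM with 24 h of afatinib and at 6.40, 5.27 and 6.12 CPM untreated, without overlap.

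The summed leukocyte list was higher at 24 h with afatinib in MKN1, MKN7 and NCI-N87, with no overlap between the groups. Its summed level was 2.31 to 2.51 CPM in untreated MKN1 and 5.75 to 6.79 CPM with afatinib at 24 h, 5.42 to 7.70 and 11.9 to 16.5 CPM in MKN7, and 4.80 to 5.74 and 9.45 to 9.80 CPM in NCI-N87. At 4 h untreated and afatinib libraries overlapped in MKN1 (1.62 to 1.80 and 1.52 to 2.45 CPM) and NCI-N87 (4.83 to 5.78 and 5.24 to 5.41 CPM) but not in MKN7 (7.24 to 8.78 and 9.47 to 11.3 CPM). With EGF at 24 h in MKN1 the sum was 1.29 to 1.35 CPM. The gene of the list with the largest increase in CPM at 24 h differed by line. It was CSF1R in MKN1, at 1.42 to 1.61 CPM untreated and, with afatinib, at a lowest value of 4.02 CPM and a median of 4.19 CPM. In MKN7 it was the integrin gene ITGAM, at 3.61 to 5.50 and 8.47 to 13.8 CPM. In NCI-N87 it was the lysozyme gene LYZ, which secretory epithelium also makes, at 3.58 to 4.59 and 8.38 to 8.94 CPM. ITGAM was also higher without overlap in MKN1 (0.289 to 0.563 and 0.928 to 1.48 CPM), and CSF1R in MKN7 (0.955 to 1.73 and 2.13 to 2.51 CPM). So was SPI1 in MKN1 (0.15 to 0.307 and 0.414 to 0.813 CPM) and MKN7 (0.14 to 0.236 and 0.269 to 0.323 CPM). In NCI-N87 the groups overlapped for these genes, and PTPRC was lower (0.331 to 0.486 and 0.227 to 0.314 CPM). In the untreated and afatinib libraries of these lines at 24 h, TYROBP was at 0, AIF1 had at most 2 counts, and PTPRC, the pan-leukocyte marker CD45, did not exceed 0.505 CPM. CD68 was at 0 too, but it lies inside another gene and cannot be read. In Hs746T the sums were 2.33 to 4.75 CPM untreated and 2.12 to 4.25 CPM with afatinib. The part of leukocyte RNA in the changes of TLR1, TLR3 and TLR5 was not tested beyond these values.

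EGF and cetuximab were given to MKN1 and Hs746T, and in MKN1 TLR1 and TLR3 were lower with the ligand and higher with the inhibitors at 24 h. At 24 h TLR3 was at 4.11, 2.71 and 2.79 CPM untreated and at 0.892, 0.721 and 0.884 CPM with EGF (log2FC −1.92 ± 0.246, adjusted p = 2.72e-07). These EGF libraries lay above the untreated MKN1 libraries of 4 h (given above), so that TLR3 was lower only than in untreated cells of the same time. With cetuximab alone it was at 6.27, 6.16 and 6.19 CPM (log2FC 0.93 ± 0.214, adjusted p = 0.00454, lost without replicate 3 at 0.11). With EGF + cetuximab it was at 1.38, 1.23 and 1.42 CPM, still below every untreated library (log2FC −1.25 ± 0.232, adjusted p = 0.000257). That call was lost without replicate 1 (adjusted p = 0.131). From lowest to highest mean the order was EGF, EGF + cetuximab, untreated, cetuximab and afatinib.

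TLR1 followed the same order in MKN1 at 24 h. It was at 0.374, 0.428 and 0.269 CPM with EGF, 0.358, 0.470 and 0.550 CPM with EGF + cetuximab and 1.35, 1.5 and 1.85 CPM with cetuximab, against 1.10, 0.764 and 0.602 CPM untreated. TLR1 was lower with EGF than in untreated cells at 24 h (log2FC −1.20 ± 0.315, adjusted p = 0.00318), although without replicate 1 the adjusted p was 0.0736. Its EGF libraries overlapped the untreated ones of 4 h. Cetuximab (log2FC 0.90, adjusted p = 0.0267) and EGF + cetuximab (−0.85, 0.0457) passed the adjusted p alone, and both were lost in several sets with a replicate left out (adjusted p up to 0.447 and 0.619). TLR5 was lower with EGF (log2FC −0.71, adjusted p = 0.0112, up to 0.136 with a replicate left out or with the 2 groups fitted alone). CD14 was lower as well (−0.39, 0.0298, up to 0.382), and MYD88 was higher (0.32 ± 0.062, adjusted p = 0.000107). TLR4 was also higher (0.32, adjusted p = 0.0402), a call lost under 6 of 9 alternatives (adjusted p up to 0.45). With EGF at 24 h 2 members were regulated, beside 8.36% of all genes, and 6 passed the adjusted p, beside 35.8%. With EGF + cetuximab 1 was regulated (all genes, 3.38%), and with cetuximab none was (1.33%) and 2 passed the adjusted p (10.8%). With the block TLR5 was also higher with cetuximab (log2FC 0.57, adjusted p = 0.00863).

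At 4 h TLR4 was the member that moved with the EGF receptor ligand and antibody in MKN1. It was at 4.38, 3.97 and 5.73 CPM untreated, at 6.15, 7.37 and 7.21 CPM with EGF (log2FC 0.57 ± 0.128, adjusted p = 0.00316) and at 2.87, 2.44 and 2.17 CPM with cetuximab (log2FC −0.91 ± 0.134, adjusted p = 6.87e-05). EGF + cetuximab left 7.09, 5.86 and 7.89 CPM, all above the untreated libraries (log2FC 0.58 ± 0.128, adjusted p = 0.0178). None of these groups overlapped the untreated group. The EGF and EGF + cetuximab calls were lost without replicate 1 or 2 (adjusted p up to 0.155 and 0.687). No member was regulated at 4 h with EGF (1.48% of all genes, and 6.82% past the adjusted p), EGF + cetuximab (0.116%) or cetuximab (0.333%, and 1.43% past the adjusted p). At 24 h TLR4 was at 7.43, 6.91 and 6.65 CPM with cetuximab, which overlapped untreated, and the cetuximab effect at 24 h exceeded that at 4 h by 0.95 ± 0.183 (adjusted p = 0.0138, all genes 0.192%). That difference was lost when any 1 replicate was left out (adjusted p up to 0.484), whereas that for afatinib was lost without replicate 1 or 3. For TLR3 the EGF effect was lower at 24 h than at 4 h by 1.86 (adjusted p = 0.00249, all genes 9.46%), and without replicate 1 the adjusted p was 0.177. The EGF effects at 24 h differed between MKN1 and Hs746T for TLR3 (−1.79 ± 0.311, adjusted p = 2.06e-05) and TLR1 (−1.29 ± 0.357, adjusted p = 0.0115), beside 7.93% of all genes, and the TLR1 difference was lost when any 1 replicate was left out (adjusted p up to 0.199). No member differed between MKN1 and Hs746T in the effect of EGF at 4 h (0.92%) or of cetuximab at 4 h (0.127%) and 24 h (0.267%). With the block TLR4 differed in the effects of EGF (0.58, adjusted p = 0.00421) and cetuximab at 4 h (−0.83, 0.000236), and TLR3 (1.06, 7.66e-07) and TLR1 (0.99, 0.000858) in that of cetuximab at 24 h.

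**Figure D4:**
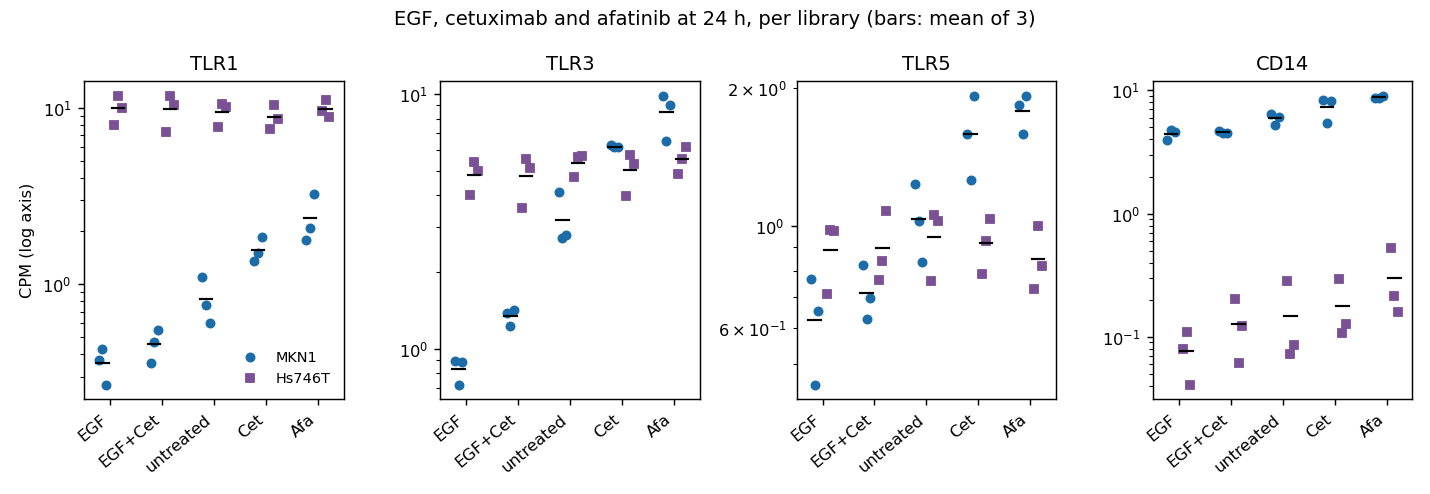
TMM-scaled CPM of TLR1, TLR3, TLR5 and CD14 (log axis) in MKN1 and Hs746T cells at 24 h under EGF, EGF + cetuximab, no treatment, cetuximab and afatinib, with 1 point per library and a bar at the mean of 3. In MKN1 the mean of TLR3 is 0.833 CPM with EGF, 3.21 CPM untreated and 8.48 CPM with afatinib.

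Compared directly with cetuximab in MKN1, afatinib regulated no member at 4 h (0.0% of all genes) or 24 h (0.0202%). The log2FC lay between −0.41 and 0.60, the latter for TLR1 at 24 h (± 0.249, adjusted p = 0.627). EGF + cetuximab regulated no member against EGF at 4 h (0.126%) or 24 h (0.156%), the farthest being TLR3 at 24 h (log2FC 0.67 ± 0.258, adjusted p = 0.314), which passed with the block (adjusted p = 0.0223).

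Trastuzumab alone regulated no gene in any line at either time (0.0%). Over its 8 comparisons, 0 of 62 tests of members passed the adjusted p (1 had an unadjusted p under 0.05), and the log2FC lay between −0.57 and 0.64. With the block MYD88 was higher in MKN7 at 24 h (log2FC 0.22, adjusted p = 0.0411). Trastuzumab + afatinib against afatinib gave no regulated gene (0.0% in each line and time). Its comparison with untreated cells shares the untreated libraries with that of afatinib. At 24 h TLR5 in NCI-N87 was at 12.5, 10.7 and 9.97 CPM (log2FC 2.43), TLR3 at 34.5, 35.9 and 30.6 CPM (1.74), TLR1 at 49.2, 42.5 and 38.4 CPM (1.61) and TLR4 at 7.73, 6.15 and 5.93 CPM (−1.93). The combination regulated 1 and 2 members in MKN1 at 4 h and 24 h (0.727% and 4.24% of all genes), 0 and 2 in MKN7 (3.71% and 13.9%) and 1 and 4 in NCI-N87 (3.01% and 31.6%).

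Over the whole set, 25 member calls as regulated were made in the 36 comparisons with untreated cells. The share of all genes regulated ran from 0.0% to 31.6% over these comparisons, and was highest in NCI-N87 at 24 h with afatinib (29.6%) and trastuzumab + afatinib (31.6%). Calls for afatinib and for the combination share their untreated libraries, so that the total counts such results more than once. The calls fell on TLR1, TLR3 and TLR5, which were higher with afatinib, alone or with trastuzumab, than in untreated cells of the same time, and on TLR4, which was lower. Of these, TLR1 and TLR3 were also called lower with EGF in MKN1 at 24 h.

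**Figure D5:**
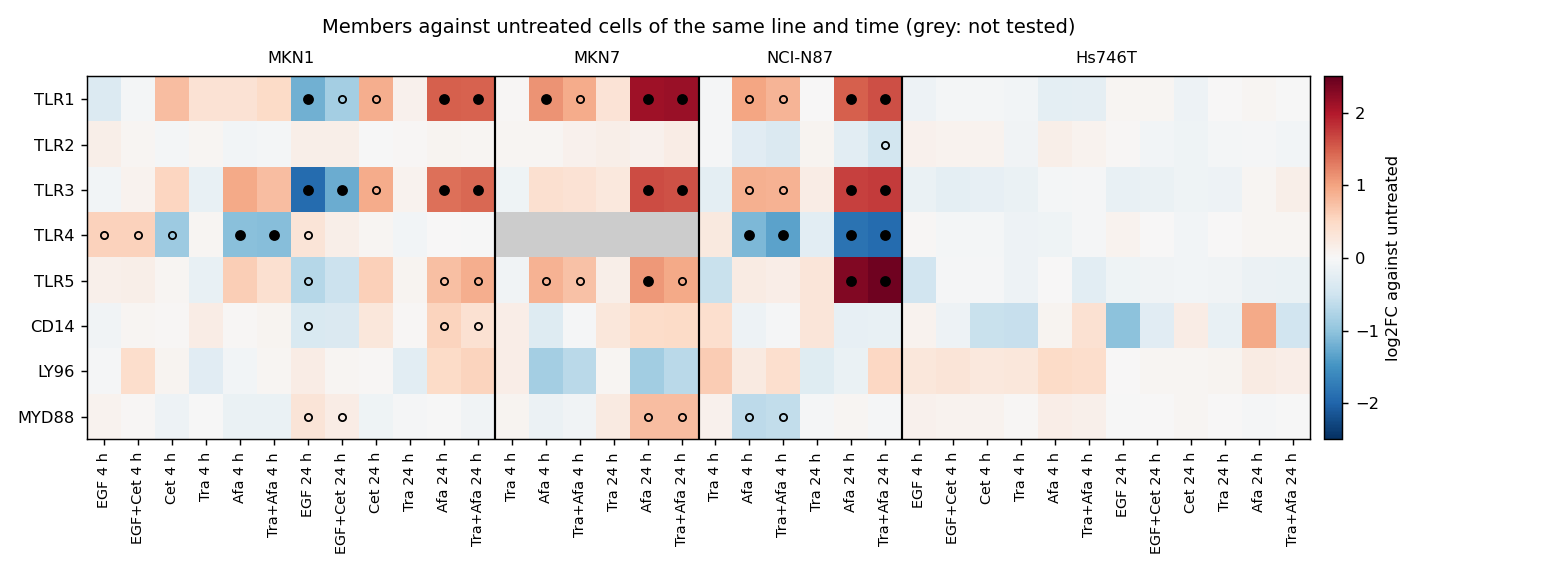
Log2FC against untreated cells of the same line and time for the 8 measurable members (rows) in each treatment (columns), by cell line. Filled marks show comparisons called regulated, and open marks those past the adjusted p alone. The Hs746T columns hold no mark, and the rows of TLR2, CD14, LY96 and MYD88 hold no filled mark in any line.

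The rest of the pathway was taken as a list of 45 genes: the other Toll-like receptors, accessory and trafficking factors, adaptors, kinases and ubiquitin ligases, transcription factors and negative regulators. In NCI-N87 after 24 h of afatinib, 3 of the 38 tested were regulated upward and 6 downward (all genes in either direction, 29.6%), with a list median log2FC of 0.09 beside 0.03 for all genes. TLR10, a receptor of the TLR1 family next to TLR1 on chromosome 4, was higher at 4 h (log2FC 1.77 ± 0.362) and at 24 h (2.85 ± 0.326), where it reached 2.22 CPM from 0.298. TNIP1, an inhibitor of NF-κB signaling (1.16), and PELI2, a ubiquitin ligase (1.26), were higher. IRAK1 (−1.34) and IRAK2 (−1.24), kinases below MYD88, the IκB kinase CHUK (−1.41), the ubiquitin-conjugating enzyme UBE2N (−1.32), TRAF3 (−1.11) and the NF-κB-induced inhibitor TNFAIP3 (−1.31) were lower. In MKN7 at 24 h, 2 of 38 rose, CD36 (a lipid scavenger receptor that assists TLR2, 2.15) and the adaptor SARM1 (1.39), and 3 fell, IRAK2 (−1.39), TNFAIP3 (−1.07) and CD180 (a TLR4-like receptor, −1.48), beside 13.5% of all genes regulated in either direction and with a list median of 0.06 beside 0.04.

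In MKN1 at 24 h, CD36 and CD180 were the 2 of 39 tested that were regulated, upward, with afatinib (1.93 and 1.55, all genes 4.19%) and with cetuximab (1.34 and 1.05, all genes 1.33%), and CD36 was the 1 regulated, downward, with EGF (−2.19, all genes 8.36%). The list medians were 0.08, 0.06 and −0.03 beside 0.01, 0.01 and −0.05 for all genes. Both were also higher in untreated MKN1 at 24 h than at 4 h (1.27 and 1.55), whereas IRAK2 (−1.13) and TNFAIP3 (−1.86) were lower. At 4 h EGF raised TNFAIP3 (log2FC 1.01 ± 0.115), and afatinib regulated 0 of 39. CD180 was lower with afatinib in MKN7 at 24 h but higher at 4 h (log2FC 1.51 ± 0.506, at 0.0868 CPM in untreated cells), so that its direction differed by time at levels near the limit of these libraries. In Hs746T 0 of 37 were regulated by afatinib or EGF at either time. TLR9 and TICAM2 had 0 counts in all libraries, but each overlaps another protein-coding gene on its strand, so that the limit given for TLR6 holds for them too.

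After centring each line on its own mean, the log2 levels of TLR1 and TLR3 ran together over the 44 conditions (Pearson's r = 0.94), and each ran with TLR5 (r = 0.79 for both). These are descriptions over conditions that share lines, time points and untreated cells. TLR2 ran with MYD88 (r = 0.70), and TLR4 ran with none of them beyond 0.40. Among 15603 other genes, the closest to TLR1 were BAZ2B (r = 0.98) and TMPRSS7 (0.97), to TLR3 KLHL3 and GIMAP2 (0.98 each), to TLR5 PNPLA7 and PIH1D2 (0.95 each) and to TLR4 TOR4A (0.87) and PITPNM1 (0.85). For MYD88 they were ADAMTSL5 (0.88) and SH2B2 (0.87), for CD14 SLC39A1 (0.78) and VAMP8 (0.77), for TLR2 LTBP3 (0.77) and TRIM47 (0.76), and for LY96 RBMS2 (0.72) and LPIN2 (0.69).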

How the data were processed

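RNA was sequenced from 4 gastric cancer lines, in 44 conditions with 3 replicates each. The authors selected polyadenylated RNA, built strand-specific libraries for paired-end sequencing and deposited unnormalised counts for each Ensembl identifier. Per the submitters' processing notes, Trim Galore, STAR and hg38 were used. The counting tool, its strand setting and the annotation are not given in the sources used here, and reads of overlapping genes may have been dropped. Identifiers were matched to symbols with GENCODE release 29, which lacks 8404 identifiers that hold 0.0422% of the counts. All pairs of replicates were compared, 0 were identical, and each pair differed by more than counting noise.

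The counts were fitted per cell line in R 4.3.3 with edgeR 4.0.16 (TMM, filterByExpr, min.count 10 and min.total.count 15, quasi-likelihood F test, Benjamini-Hochberg adjustment over all genes tested), without a replicate term. A fit of all libraries together gave the differences between lines, and a second fit per line the differences between 24 h and 4 h effects. The standard error of a log2FC was taken as its size divided by the square root of F. The fits were tested on simulated counts. Tests covered 8 members in MKN1, NCI-N87 and Hs746T (not TLR6) and 7 in MKN7 (not TLR4 or TLR6). Levels between genes were compared per kb of GENCODE exon. Alternatives were library sizes without TMM, DESeq2 1.42.0, other count filters, the compared groups alone, a block for the replicate number, and fits without each replicate number in turn.

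The replicate numbers were checked as pairs. In 57 of 60 comparisons the deviations of same-numbered libraries from their group means correlated above 0.1 in all 3 pairs. Blocked values of treatment effects are therefore printed where they change a call of a member, except for TLR4 against MKN7. The exceptions were comparisons between treatments in MKN1 at 24 h. Named genes were all 9 members, the listed pathway genes that were regulated, and the 2 genes closest to each member by Pearson's r on log2 CPM (prior count 2). The members and lists were chosen with earlier results of these data known.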

Additional observations from a re-analysis of the deposited data

Results flagged for a closer look

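The same treatment changed a member by different amounts in different cell lines in 25 member calls, summed over 16 comparisons. Each was tested as an interaction over all libraries (edgeR quasi-likelihood, adjusted over all genes). In single comparisons 0.127% to 35.1% of all genes passed. For afatinib at 24 h, the log2FC of MKN1 minus that of NCI-N87 was 1.84 for TLR4 and −1.56 for TLR5, that of MKN1 minus MKN7 was −0.76 for MYD88, and that of MKN7 minus NCI-N87 was −1.24 for TLR5 and 0.69 for MYD88. Against Hs746T at 24 h, the afatinib difference was 1.45 for TLR1, 1.35 for TLR3 and 0.92 for TLR5 in MKN1. In MKN7 it was 2.06 for TLR1, 1.59 for TLR3, 1.24 for TLR5 and 0.79 for MYD88. In NCI-N87 it was 1.48 for TLR1, 1.69 for TLR3, 2.48 for TLR5 and −1.86 for TLR4. For afatinib at 4 h, MYD88 differed by 0.51 in MKN1 minus NCI-N87 and by 0.56 in MKN7 minus NCI-N87. Against Hs746T at 4 h, the differences were 1.45 for TLR1 and 0.95 for TLR5 in MKN7, and 1.27 for TLR1, 0.97 for TLR3 and −0.79 for MYD88 in NCI-N87. The TLR5 difference in MKN7 and the TLR3 difference in NCI-N87 at 4 h were lost when any 1 replicate was left out (adjusted p up to 0.504 and 0.197). For EGF at 24 h, MKN1 minus Hs746T was −1.29 for TLR1 and −1.79 for TLR3.

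With the replicate number as a block, further afatinib differences passed the threshold beside those given with their results. For MKN1 minus NCI-N87 at 24 h these were TLR2 (0.32, adjusted p = 0.0123) and CD14 (0.75, 0.00522), and for MKN1 minus Hs746T at 4 h TLR3 (1.04, 0.00196) and MYD88 (−0.29, 0.00572). For MKN7 minus NCI-N87 they were TLR5 at 4 h (0.71, 0.02) and TLR2 at 24 h (0.33, 0.0275). TLR4 at 24 h is not counted there, since it failed the filter on low counts in MKN7 and entered this fit through the other lines alone. For MKN7 minus Hs746T they were LY96 at 4 h (−1.23, 0.0148) and 24 h (−1.04, 0.0171) and MYD88 at 4 h (−0.23, 0.0153). For NCI-N87 minus Hs746T they were TLR2 at 4 h (−0.38, 0.00552) and CD14 at 24 h (−1.15, 0.015). For EGF at 24 h, MYD88 differed between MKN1 and Hs746T (0.29, 0.00158).

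The effect at 24 h differed from that at 4 h in 10 member calls, summed over 8 comparisons, by a test that was added after the levels had been seen. In single comparisons 0.0% to 35.8% of all genes passed it. In MKN1, TLR4 differed by 1.04 for afatinib and 0.95 for cetuximab, and TLR3 by −1.86 for EGF. In MKN7 the afatinib difference was 0.98 for TLR1, 1.22 for TLR3 and 0.90 for MYD88. In NCI-N87 it was 2.11 for TLR5, 0.83 for TLR3, 0.70 for MYD88 and −0.71 for TLR4. No member differed between times in Hs746T for afatinib, cetuximab or EGF (0.0% of all genes). The MKN7 difference was lost for TLR1 when any 1 replicate was left out (adjusted p up to 0.39) and for TLR3 without replicate 1 or 3 (up to 0.242). With the block, CD14 also differed between times for afatinib in MKN1 (0.54, adjusted p = 0.0299) and MKN7 (0.79, 0.0463), TLR1 for afatinib in NCI-N87 (0.51, 0.00445), and TLR5 (−0.87, 0.0237) and MYD88 (0.23, 0.0262) for EGF in MKN1.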

How the results depend on the processing

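Of the member values past the threshold that were recomputed, at most 81 within lines and 77 between lines under 1 alternative, none reversed. Summed over comparisons, the members regulated numbered 25 in treatments against untreated (22 to 30 under the alternatives), 11 in combinations against single agents (11 to 13), 2 in untreated 24 h against 4 h and 32 between untreated lines (30 to 32), 3 of them of TLR4 against MKN7. Interactions between lines numbered 25 and were 47 with the replicate block, and 16 to 23 with a replicate left out. The 47 include TLR4 in MKN7 minus NCI-N87, which is not counted as a difference above. Differences between times numbered 10 and were 15 with the replicate block, 9 with library sizes alone and 4 to 7 with a replicate left out. Of 86 single comparisons, 61 kept every count within 1.5 times and 25 did not. The 61 include comparisons whose count was 0 and stayed at 0, such as those of trastuzumab alone and of treatments in Hs746T with untreated cells. The share is therefore no measure of how stable the calls made were. The causes were not tested, except that fewer libraries were fitted where a replicate was left out.

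With library sizes alone, regulated members went from 1 to 0 for trastuzumab + afatinib in MKN1 at 4 h, from 0 to 1 for cetuximab in MKN1 at 24 h and from 1 to 2 for afatinib in NCI-N87 at 4 h. With 10 counts required in every library, which removed TLR1 in MKN1 from the test, they went from 2 to 1 for EGF, afatinib and trastuzumab + afatinib in MKN1 at 24 h. With the replicate block, member calls in the afatinib interaction at 24 h went from 1 to 2 (MKN1 minus MKN7), from 2 to 5 (MKN1 minus NCI-N87) and from 2 to 5 (MKN7 minus NCI-N87). The last 5 include TLR4, which entered that test through the other lines alone. At 4 h they went from 0 to 3 (MKN1 minus Hs746T), from 1 to 2 (MKN7 minus NCI-N87), from 2 to 4 (MKN7 minus Hs746T) and from 3 to 5 (NCI-N87 minus Hs746T). For MKN1 minus Hs746T they went from 0 to 1 for EGF and for cetuximab at 4 h and from 0 to 2 for cetuximab at 24 h. Beside the blocked values printed with their results, the block brought differences from untreated with an adjusted p above 0.05 past that threshold, each under 1 in log2FC. In MKN1 these were TLR3 (0.76, adjusted p = 0.0156) and MYD88 (−0.16, 0.0406) with trastuzumab + afatinib at 4 h, TLR2 with EGF (0.15, 0.0327) and with EGF + cetuximab (0.15, 0.0403) at 24 h, and TLR5 (−0.54, 0.0241) and CD14 (−0.37, 0.0155) with EGF + cetuximab at 24 h. The others were MYD88 with afatinib in MKN7 at 4 h (−0.14, 0.0229), CD14 with trastuzumab + afatinib in MKN7 at 24 h (0.47, 0.0437), TLR2 with trastuzumab + afatinib in NCI-N87 at 4 h (−0.35, 0.0416) and LY96 with trastuzumab + afatinib in Hs746T at 4 h (0.39, 0.0371). Against trastuzumab alone, the block brought trastuzumab + afatinib past the threshold for TLR3 (0.94, adjusted p = 0.00374) in MKN1 and TLR3 (0.46, 0.0303) and MYD88 (−0.16, 0.00892) in MKN7 at 4 h, and for LY96 in MKN1 (0.87, 0.00858) and CD14 (−0.49, 0.0427) and LY96 (0.81, 0.0386) in NCI-N87 at 24 h, and afatinib against cetuximab for TLR3 in MKN1 at 24 h (0.44, 0.0348).

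With 1 replicate left out, the ranges in MKN1 against untreated were 0 to 1 for cetuximab at 4 h, 0 to 2 for afatinib at 4 h, 0 to 1 for trastuzumab + afatinib at 4 h, 1 to 2 for EGF at 24 h, 0 to 2 for EGF + cetuximab at 24 h, 0 to 2 for cetuximab at 24 h and 2 to 4 for trastuzumab + afatinib at 24 h. They were 0 to 1 for afatinib and for trastuzumab + afatinib in MKN7 at 4 h, against untreated and against trastuzumab, and 1 to 2 for afatinib in NCI-N87 at 4 h. For the interactions they were 1 to 2 (MKN1 minus MKN7, 24 h), 0 (MKN1 minus NCI-N87, 4 h), 0 to 3 and 1 for afatinib and EGF in MKN1 minus Hs746T at 24 h, 0 and 2 to 4 (MKN7 minus NCI-N87, 4 h and 24 h), 0 to 1 (MKN7 minus Hs746T, 4 h) and 1 to 3 (NCI-N87 minus Hs746T, 4 h). Among the members tested within a line, LY96 in NCI-N87 and MKN7 (at most 27 and 33 counts in any library) and CD14 in Hs746T (at most 29) had the fewest counts, which limits the precision of their log2FC.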
